A study of Mus musculus with 6 samples.

Results

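The methionine cycle and the transsulfuration branch that leaves it were examined through 9 genes named by their enzymatic role: Mat1a, Mat2a, Gnmt, Bhmt, Bhmt2, Ahcy, Cbs, Cth and Nnmt. They are 9 of the 54532 genes in the deposited count table, and all 9 had enough reads to be tested. Hepatocytes were isolated from mice fed a high-fat diet (HFD) for 26 weeks, at an age of 32 to 34 weeks, and RNA was sequenced in 6 libraries. The 3 XCON libraries came from Xbp1FL/FL mice, which carry floxed Xbp1 alleles, and the 3 XCKO libraries from Xbp1ΔHep mice, in which Xbp1 is deleted in hepatocytes. Every mouse was on the C57BL/6 background and on the same diet, so no library shows the genes on a normal diet. What drives the deletion was not stated in the labels. Because the labels do not say which animal each library came from, p-values measure the spread between libraries.

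Methionine enters the cycle when a methionine adenosyltransferase joins it to ATP to make S-adenosylmethionine (SAM), the methyl donor of the cell. Methyltransferases pass the methyl group on and leave S-adenosylhomocysteine, which is split to homocysteine. Homocysteine is either methylated back to methionine or committed to cysteine through transsulfuration. The liver is the main site of these reactions, and glycine N-methyltransferase is a classic buffer of hepatic SAM. XBP1 acts in the unfolded protein response, where it drives transcription once IRE1 has spliced its mRNA.

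Hepatocytes of Xbp1ΔHep mice held 2.01 to 2.70 times the mean mRNA level (in CPM, the reads of a gene scaled to library size by TMM) of XCON hepatocytes for 4 genes of the cycle: the liver enzyme that makes SAM, a pair of methyltransferases that use it, and the last enzyme of transsulfuration. Of the 9 genes, Mat1a, Gnmt, Cth and Nnmt rose at an adjusted p under 0.05 (quasi-likelihood test of edgeR, Benjamini-Hochberg over 14873 genes), 0 fell and 5 did not pass. Among all tested genes 5.21% rose and 4.05% fell, 9.27% together. The 9 genes were chosen with earlier results of these data known, so the shares beside them are a description. At an unadjusted p under 0.05, 7 of the 9 were higher and 0 lower, against 14.3% of all tested genes that were higher. The share of all tested genes that were lower at that p was not counted. DESeq2 called 6 of the 9 higher and 0 lower, against 9.51% higher and 8.32% lower of all genes by DESeq2. In 7 of the 9, every XCKO library was above every XCON library, a pattern found in 17.6% of tested genes, and 0 showed the opposite, found in 18.1% (35.7% in either direction). The median log2 fold change (XCKO over XCON) was 1.01 over the 9 genes and -0.05 over all genes tested. The 9 genes together took 0.438% to 0.588% of the reads in XCON libraries and 0.680% to 0.824% in XCKO libraries.

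**Figure D1:**
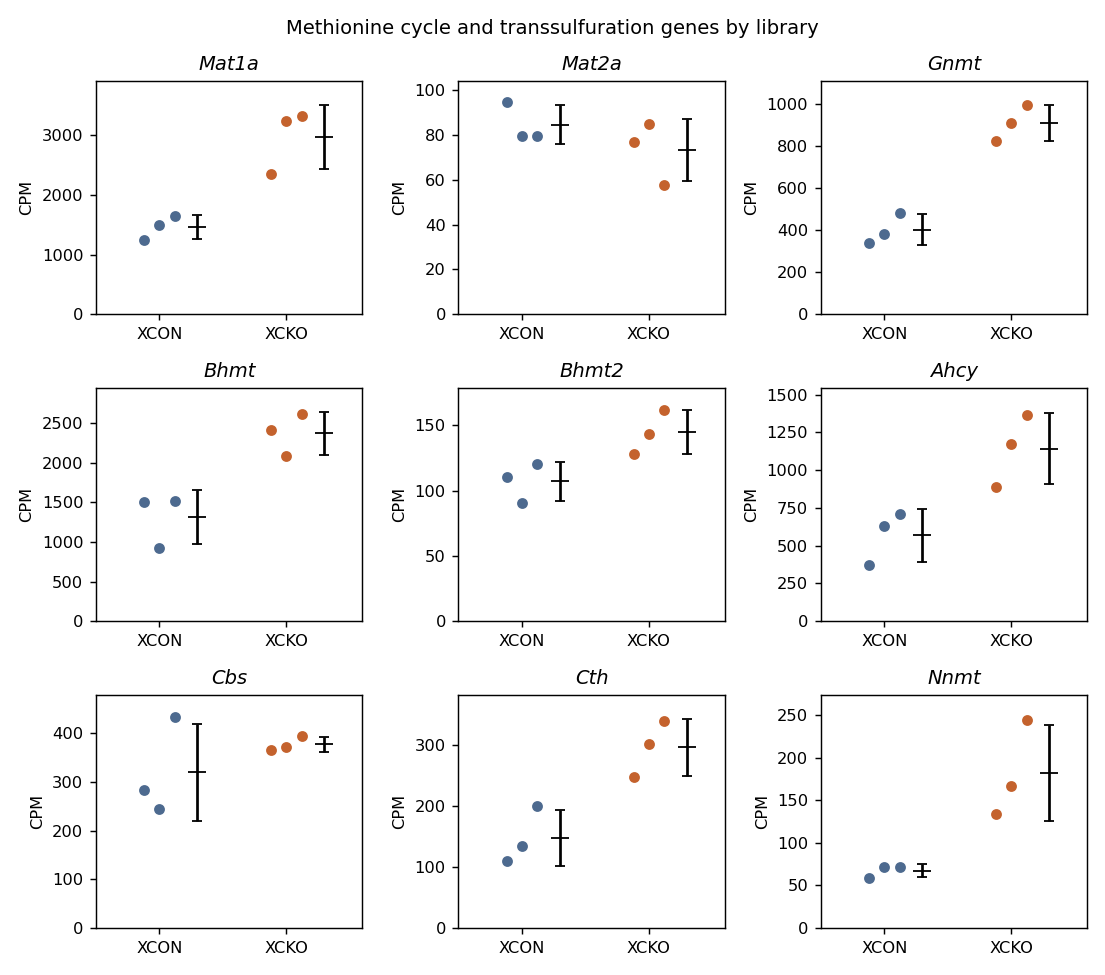
Level of each of the 9 genes in every library, in CPM (TMM-scaled, linear axis from 0), with 1 point per library and the group mean ± SD beside the points. The XCKO points lie above all XCON points in 7 panels, and the groups overlap for Mat2a and Cbs.

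Total counts ran from 23919355 to 27240079 per library. Xbp1 itself, which checks the labels, had 4453, 8021 and 9434 reads in XCON 1, 2 and 3 and 1458, 1013 and 1558 reads in XCKO 1, 2 and 3. It fell by 2.24 on the log2 scale (± 0.29 SE, adjusted p = 0.00837). Reads from mitochondrially encoded genes made up 22.8% of XCON 1 and 8.99% to 13.1% of the other libraries. Globin mRNA, from red blood cells, reached 329.2 CPM in XCKO 1 and 824.8 in XCKO 3 but stayed at 9.13 to 18.6 CPM in the other libraries. Without XCKO 1 and XCKO 3 together, 1 of the 9 genes (Nnmt, adjusted p = 0.0230) passed; the lone XCKO library was assumed to vary like the XCON libraries.

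Markers of hepatocytes and of other liver cells differed between the groups, and their part in the results was not tested. The 10 hepatocyte markers summed to 66425 to 89716 CPM in XCON and 90799 to 119844 CPM in XCKO, with 0 of 10 past 0.05 by edgeR, 4 of 10 higher at an unadjusted p under 0.05, and a mean difference of 0.56 in log2 CPM. Macrophage markers summed to 1124 to 2204 CPM in XCON and 385 to 1069.8 CPM in XCKO, and 1 of 8 (Cd68) fell, with 5 of 8 lower at an unadjusted p under 0.05. Stellate cell and fibroblast markers summed to 253 to 566 CPM in XCON and 107 to 264 CPM in XCKO, and 2 of 8 (Pdgfrb and Lrat) fell, with 6 of 8 lower at an unadjusted p under 0.05. No hepatocyte marker, macrophage marker or stellate cell marker was at 0 in all libraries. Endothelial and cholangiocyte markers had 0 of 7 and 0 of 6 past 0.05 by edgeR, with 0 and 5 lower at an unadjusted p under 0.05. Of all tested genes, 14.3% were higher at that p, and the share lower was not counted. Every XCKO library was below every XCON library in 5 of 8 macrophage, 4 of 8 stellate cell, 2 of 6 cholangiocyte and 0 of 7 endothelial markers, against 18.1% of tested genes. The opposite held in 4 of 10 hepatocyte markers, against 17.6%. Of the adipocyte markers only Cfd had enough reads for a test, and it rose from 2.92 to 153 CPM, while Lep was at 0 in every library. These marker calls did not hold in every fit that left out 1 library. Cd68 was lost without XCON 1, XCON 2 or XCKO 1 (adjusted p up to 0.0809), Pdgfrb without XCON 2, XCON 3 or XCKO 3 (up to 0.0611), Lrat without any library but XCKO 1 (up to 0.0728) and Cfd without XCON 1, XCKO 1 or XCKO 3 (up to 0.0708). In bulk RNA, fewer cells of a type and less RNA per cell cannot be told apart. When libraries were scaled to the hepatocyte markers in place of all genes, an alternative chosen after seeing the data, the median of all tested genes moved from -0.05 to -0.61. On that scale 1.1% of all tested genes were higher and 37.2% lower at an adjusted p under 0.05. Gnmt and Nnmt were still higher, by 0.63 (adjusted p = 0.0161) and 0.87 (adjusted p = 0.0106), Mat2a was lower by a log2 fold change of -0.77 (adjusted p = 0.0229), and the other 6 did not pass.

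The promoter letters of the genes are shown because XBP1 binds DNA. RefSeq promoters on GRCm38.p6 were at hand for Mat2a, Gnmt, Bhmt, Bhmt2, Ahcy and Cbs, of which Gnmt alone passed the test. The 250 bases before each start were searched on both strands for CCACG, part of the endoplasmic reticulum stress element, for ACGT, a core of XBP1-binding elements, for CCAAT and for TATAAA. The first pair of these can overlap within a longer run but did not in these promoters. The starts are those of RefSeq and can differ from those of the counted genes. On the minus strand the counted Bhmt gene begins at chr13:93637961, so most of the Bhmt window lies inside it. Below are Gnmt at chr17:46729166-46729415, Ahcy at chr2:155074498-155074747, Bhmt at chr13:93637759-93638008 and Mat2a at chr6:72439557-72439806, all on the minus strand and written 5′ to 3′, with matches of any of the 4 motifs in capitals.
Gnmt: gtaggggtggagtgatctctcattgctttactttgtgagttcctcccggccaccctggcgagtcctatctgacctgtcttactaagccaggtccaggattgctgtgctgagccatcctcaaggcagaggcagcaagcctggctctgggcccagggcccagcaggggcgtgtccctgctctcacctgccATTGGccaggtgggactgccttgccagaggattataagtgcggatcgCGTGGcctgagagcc
Ahcy: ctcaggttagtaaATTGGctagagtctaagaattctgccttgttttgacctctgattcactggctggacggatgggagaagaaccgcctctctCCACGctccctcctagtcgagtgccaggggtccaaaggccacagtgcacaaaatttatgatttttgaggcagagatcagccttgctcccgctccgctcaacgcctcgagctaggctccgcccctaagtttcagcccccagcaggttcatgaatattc
Bhmt: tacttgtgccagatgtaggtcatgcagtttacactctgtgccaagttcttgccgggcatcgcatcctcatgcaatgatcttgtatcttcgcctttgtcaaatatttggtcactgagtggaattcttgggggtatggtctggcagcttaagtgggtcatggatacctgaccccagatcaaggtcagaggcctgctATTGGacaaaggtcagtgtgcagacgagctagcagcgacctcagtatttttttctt
Mat2a: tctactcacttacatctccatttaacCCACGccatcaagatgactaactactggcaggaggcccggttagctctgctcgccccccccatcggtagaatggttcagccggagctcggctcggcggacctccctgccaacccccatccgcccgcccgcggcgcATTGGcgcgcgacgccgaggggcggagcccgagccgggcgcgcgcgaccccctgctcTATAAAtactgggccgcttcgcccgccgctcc
CCACG was present in 4 of the 6 promoters (Mat2a, Gnmt, Bhmt2 and Ahcy), and 28.3% of 32851 promoters of this length hold it. Its match in Gnmt began 15 bases before the start, and the one in Mat2a, whose level did not pass the test, began 224 bases before. ACGT was present in 1 of 6 (Cbs), against 26.9% of all promoters. CCAAT was present in 5 of 6, all but Bhmt2, against 33.8%. TATAAA was present in Mat2a only, 32 bases before its start, against 12.4%. GC content was 48.0% in Bhmt, 52.8% in Ahcy, 60.4% in Gnmt, 67.6% in Mat2a, 68% in Cbs and 74% in Bhmt2. Its median over all promoters was 52.4%. These matches are descriptions of letters and not of binding.

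The gene that makes most hepatic SAM rose, and its extrahepatic counterpart did not pass the test. Mat1a (ENSMUSG00000037798, mm10 chr14:41105035-41124412, plus strand) encodes the catalytic subunit of the adult liver enzymes. Its levels were 1239.7, 1497 and 1653 CPM in XCON 1, 2 and 3 and 2355, 3234 and 3323 CPM in XCKO 1, 2 and 3. The lowest XCKO library was well above the highest XCON library. The mean went from 1463 ± 209 to 2971 ± 535 CPM (SD, n = 3 each), a log2 fold change of 1.02 ± 0.22 (SE, 95% interval 0.52 to 1.52, edgeR adjusted p = 0.0276). The call was lost on leaving out any library but XCKO 1, with adjusted p from 0.0559 to 0.0876 in those 5 fits.

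Mat2a (ENSMUSG00000053907, chr6:72432799-72439558, minus strand) encodes the catalytic subunit used outside the liver and in dividing hepatocytes. It stood at 94.4, 79.5 and 79.3 CPM in XCON and at 76.8, 84.8 and 57.8 CPM in XCKO. The groups overlapped, with XCON 1 the highest and XCKO 3 the lowest. Its log2 fold change was -0.21 ± 0.18 (interval -0.61 to 0.20, adjusted p = 0.473), and 0.033 without XCKO 1 and XCKO 3. The ratio of Mat1a to Mat2a, taken per length from the deposited FPKM (fragments scaled to gene length and library size), was 17.0, 24.3 and 27.0 in XCON and 39.6, 49.3 and 74.4 in XCKO. Every XCKO ratio exceeded every XCON ratio, a difference of 1.24 on the log2 scale. The exact two-sided permutation test gave p = 0.1, the smallest that 3 against 3 allows, and 0.15 after adjustment over 3 ratios.

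Both SAM-dependent methyltransferases among the 9 genes rose. Gnmt (ENSMUSG00000002769, chr17:46725664-46729168, minus strand) encodes the abundant liver enzyme that methylates glycine to sarcosine. It stood at 341, 383 and 484 CPM in XCON 1, 2 and 3 and at 826, 907 and 994 CPM in XCKO 1, 2 and 3. The groups were far apart, and the spread within each was small beside the gap. The mean went from 402 ± 73.5 to 909 ± 84.0 CPM, a log2 fold change of 1.18 ± 0.20 (interval 0.73 to 1.62, edgeR adjusted p = 0.0153). Leaving out XCKO 3 gave an adjusted p of 0.0538, and the other 5 omissions kept the call.

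Nnmt (ENSMUSG00000032271, chr9:48591877-48605153, minus strand) encodes nicotinamide N-methyltransferase, which spends SAM on nicotinamide, the vitamin released when NAD is consumed. It had the smallest p of the 9 genes. Its levels were 58.1, 71.7 and 71.9 CPM in XCON and 134, 167 and 244 CPM in XCKO. XCON libraries lay close together and XCKO libraries were more spread, with XCKO 3 the highest. The mean went from 67.2 ± 7.90 to 182 ± 56.6 CPM, a log2 fold change of 1.43 ± 0.23 (interval 0.91 to 1.96, edgeR adjusted p = 0.0140). Nnmt passed in all 6 fits that left out 1 library, as did 228 of all tested genes; it was the only 1 of the 9 to do so. The ratio of Gnmt to Nnmt by FPKM was 7.66, 6.98 and 8.80 in XCON and 8.05, 7.11 and 5.32 in XCKO. These ratios overlapped between the groups, with a log2 difference of -0.21 and an exact permutation p of 0.5.

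**Figure D2:**
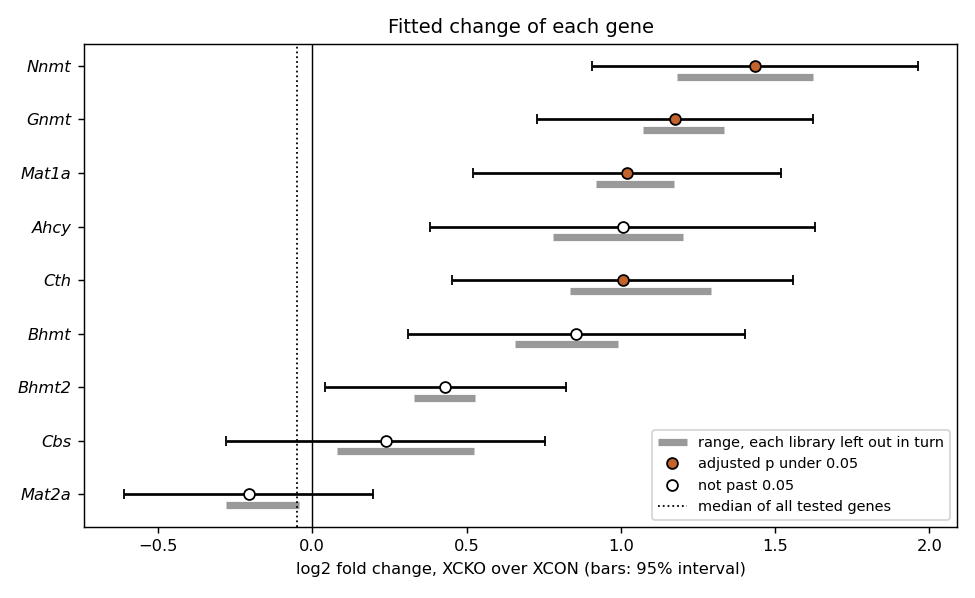
Fitted log2 fold change (XCKO over XCON) of each gene with its 95% interval; filled points passed an adjusted p of 0.05, and the grey bars span the 6 fits that each left out 1 library. Nnmt, Gnmt, Mat1a and Cth are filled, and the dotted line marks the median of all tested genes at -0.05.

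Ahcy, which removes the inhibitory product of all SAM-dependent methylation, was higher in every XCKO library but did not pass. Ahcy (ENSMUSG00000027597, chr2:155059310-155074497, minus strand) encodes S-adenosylhomocysteine hydrolase. It stood at 370.2, 627 and 709 CPM in XCON and at 891, 1174 and 1363 CPM in XCKO. XCON 1 was the lowest by a wide margin, and the groups did not overlap. The log2 fold change was 1.01 ± 0.28 (interval 0.38 to 1.63, edgeR adjusted p = 0.0537), and limma-voom gave an adjusted p of 0.0484. Part of its reads may be assigned to near-identical copies: Gm4737 shares 66.0% of the Ahcy transcript's 50-base words and had 15.8% as many reads, and Gm9826 shares 30.2%. Gm4737 had means of 95.5 CPM in XCON and 174 CPM in XCKO and did not pass (log2 fold change 0.86, edgeR adjusted p = 0.0920). Gm9826, with 2.98% as many reads as Ahcy, rose from 13.2 to 38.3 CPM (log2 fold change 1.53, adjusted p = 0.0266). With the copies' counts added to Ahcy and those of the other genes, Ahcy had an adjusted p of 0.0559 and the number of genes past 0.05 stayed at 4.

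Homocysteine is returned to methionine by betaine or by folate, and Bhmt and Mtr, which carry these routes, had log2 fold changes of opposite sign. Bhmt (ENSMUSG00000074768, chr13:93616675-93637961, minus strand) encodes the betaine-dependent enzyme, which is abundant in liver. It stood at 1498, 917 and 1516 CPM in XCON and at 2408, 2085 and 2620.1 CPM in XCKO. XCON 2 was the lowest library, and all XCKO libraries were above all XCON libraries. The log2 fold change of 0.86 ± 0.24 (interval 0.31 to 1.40) had an edgeR adjusted p of 0.0573. Its copy Gm5096, which shares 24.1% of the 50-base words and had 9.73% as many reads, rose by 1.11 on the log2 scale (adjusted p = 0.0231). The antisense gene Gm15622 overlaps Bhmt, and its 1001 reads were 0.354% of those of Bhmt. The strand setting of the counting was not stated, so such overlapping genes remain uncertain.

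Bhmt2 (ENSMUSG00000042118, chr13:93655720-93674302, minus strand) lies beside Bhmt and encodes an enzyme that uses S-methylmethionine as methyl donor. It stood at 111, 90.8 and 120.2 CPM in XCON and at 128, 144 and 162 CPM in XCKO. The groups did not overlap, but the gap was small. Its log2 fold change of 0.43 ± 0.17 (interval 0.04 to 0.82, adjusted p = 0.134) did not pass, and it was -0.13 under the hepatocyte-marker scaling.

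Mtr, which encodes the folate- and cobalamin-dependent methionine synthase, fell. It stood at 18.2, 18.3 and 19.0 CPM in XCON and at 12.4, 11.8 and 11.02 CPM in XCKO. Each group was tight, and the groups were apart. Its log2 fold change was -0.66 ± 0.14 (edgeR adjusted p = 0.0245), but the call was lost on leaving out any 1 of the 6 libraries, with an adjusted p of up to 0.0825 without XCKO 3. The ratio of Bhmt to Mtr by FPKM was 122, 74.1 and 118 in XCON and 287, 262 and 352 in XCKO. Again every XCKO ratio exceeded every XCON ratio, by 1.55 on the log2 scale, with an exact permutation p of 0.1 (0.15 adjusted over 3 ratios).

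**Figure D3:**
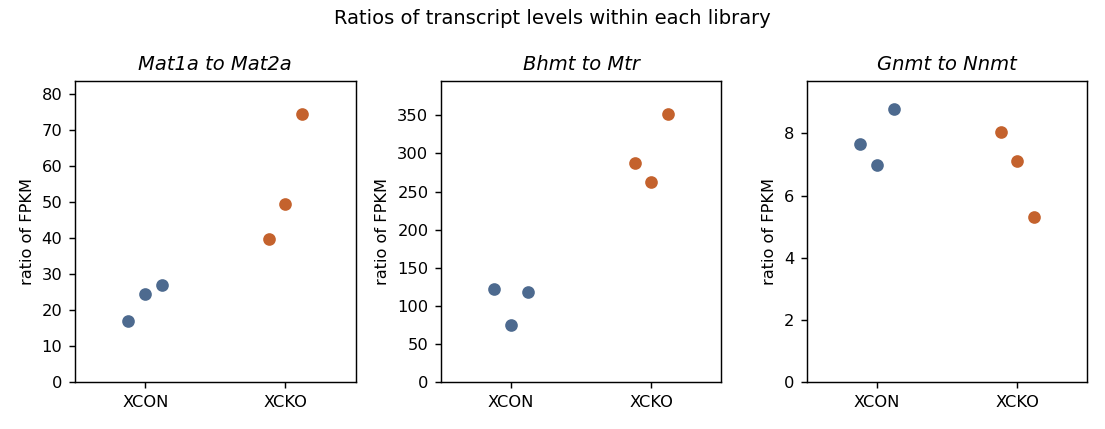
Ratios of FPKM between genes at branch points, 1 point per library, on linear axes from 0. Mat1a to Mat2a and Bhmt to Mtr are higher in all 3 XCKO libraries than in any XCON library, while Gnmt to Nnmt overlaps between the groups.

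In transsulfuration the last step rose and the first did not pass. Cbs (ENSMUSG00000024039, chr17:31612623-31637199, minus strand) encodes cystathionine beta-synthase, which joins homocysteine to serine. It stood at 283, 244 and 433 CPM in XCON and at 365, 372 and 395 CPM in XCKO. XCON 3 was the highest of all 6 libraries, so the groups overlapped. Its log2 fold change was 0.24 ± 0.23 (interval -0.28 to 0.75, adjusted p = 0.519), and it was -0.034 when scaled by library totals alone and -0.30 when scaled to the hepatocyte markers. Leaving out 1 library gave values from 0.079 without XCON 2 to 0.53 without XCON 3. Cth (ENSMUSG00000028179, chr3:157894248-157925077, minus strand) encodes cystathionine gamma-lyase, which releases cysteine and can also make hydrogen sulfide. It stood at 109, 134 and 199 CPM in XCON and at 247, 302 and 339 CPM in XCKO. All XCKO libraries were above XCON 3, the highest of its group. The log2 fold change was 1.01 ± 0.24 (interval 0.45 to 1.56, edgeR adjusted p = 0.0384). The call held on leaving out XCON 3 (adjusted p = 0.0412) and was lost on leaving out any other library, with adjusted p from 0.0541 to 0.107. It was also lost when libraries were scaled by their totals alone (log2 fold change 0.73, adjusted p = 0.0698), a scale on which Mat1a, Gnmt and Nnmt passed and 2.19% of all genes were higher and 13.7% lower. Gm43314 lies inside Cth on the same strand without exon overlap, and its 1449 reads were 4.25% of those of Cth.

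The order of the levels per length was the same in both groups except for the place of Nnmt. In mean FPKM, XCON hepatocytes ranked Mat1a (411 ± 63.7), Gnmt (326 ± 65.1), Bhmt (222 ± 60.4), Ahcy (198 ± 63.3), Cbs (93.6 ± 31.1), Cth (51.6 ± 17.2), Bhmt2 (42.4 ± 6.65), Nnmt (41.6 ± 5.11) and Mat2a (18.3 ± 1.82). Of the neighbours in that order, only Gnmt and Bhmt, and Nnmt and Mat2a, had ranges that did not overlap. In XCKO the order was Mat1a (856 ± 156), Gnmt (753 ± 77.8), Bhmt (412 ± 54.4), Ahcy (407 ± 88.2), Nnmt (115 ± 37.7), Cbs (113 ± 6.44), Cth (106 ± 17.4), Bhmt2 (58.6 ± 7.48) and Mat2a (16.3 ± 2.82). There the ranges were apart between Gnmt and Bhmt, Ahcy and Nnmt, Cth and Bhmt2, and Bhmt2 and Mat2a. Nnmt thus moved from place 8 to place 5, beside Cbs and Cth, with which its range overlapped. Mat1a lay at percentile 99.6 of tested genes by mean FPKM and Mat2a at percentile 87.5.

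The authors' deposited table gave an adjusted p for 24709 of its genes. It listed 6 of the 9 genes as higher at an adjusted p under 0.05, against 5.51% of the genes with an adjusted p. These were the 4 above with Bhmt (log2 fold change 0.89, adjusted p = 0.00302) and Ahcy (1.04, adjusted p = 0.00204) in the authors' deposited table. DESeq2 on the deposited counts called the same 6 genes, among the 9.51% of all genes it called higher.

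The genes that feed methyl groups into the cycle and take them from it were counted in lists chosen by function. The lists were chosen with earlier results of these data known. Their counts are therefore a description and not a test, and stand beside the 5.21% of tested genes that rose and 4.05% that fell. In the path from choline through betaine to sarcosine, 3 of 11 tested genes rose, 0 fell, and the median log2 fold change was 0.65. Dmgdh and Sardh, the mitochondrial enzymes that demethylate dimethylglycine (the product of Bhmt) and sarcosine (the product of Gnmt), led it. Sardh stood at 355, 653 and 726 CPM in XCON and at 1643, 1439 and 1451 CPM in XCKO (log2 fold change 1.39 ± 0.27, edgeR adjusted p = 0.0219). Dmgdh stood at 172, 234 and 242 CPM in XCON and at 474, 415 and 449 CPM in XCKO (1.04 ± 0.19, adjusted p = 0.0174). Both genes had every XCKO library above every XCON library. Leaving out XCKO 3 gave adjusted p of 0.0620 for Sardh and 0.0555 for Dmgdh, and leaving out XCKO 1 also lost Sardh. The third gene was Slc6a12, a betaine and GABA transporter (0.68, adjusted p = 0.0496), lost on leaving out any library, with up to 0.116 without XCON 1.

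Among 15 other SAM-dependent methyltransferases, 3 rose, 0 fell, and the median log2 fold change was 0.45. Inmt, which methylates indoleamines and other amines, stood at 141, 133 and 172 CPM in XCON and at 316, 443 and 528 CPM in XCKO (1.53 ± 0.23, edgeR adjusted p = 0.0108). Gamt, which makes creatine, stood at 55.0, 47.7 and 65.9 CPM in XCON and at 119, 117 and 121 CPM in XCKO (1.09 ± 0.16, adjusted p = 0.0108). Inmt and Gamt kept an adjusted p under 0.05 in all 6 fits that left out 1 library. Pemt, which makes phosphatidylcholine and is a large user of hepatic SAM, rose by 0.77 ± 0.16 (adjusted p = 0.0262), a call that held only on leaving out XCKO 2 and had an adjusted p of up to 0.0787 without XCKO 3.

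Of the 17 tested genes of cysteine, taurine, glutathione and sulfide, 4 rose and 1 fell, with a median of 0.50. Suox, the sulfite oxidase that ends cysteine breakdown, stood at 72.1, 84.4 and 84.5 CPM in XCON and at 148, 194 and 198 CPM in XCKO (1.16 ± 0.17, edgeR adjusted p = 0.0109), and kept its call in all 6 fits without 1 library. Selenbp1, a methanethiol oxidase (0.92, adjusted p = 0.0262), and Tst, a mitochondrial thiosulfate sulfurtransferase (0.94, adjusted p = 0.0295), rose too. Selenbp1 did not pass without XCON 1, XCON 2 or XCKO 3, with an adjusted p of up to 0.0807, and Tst without any XCON library or XCKO 3, with up to 0.0867. The other riser, Mpst (0.84, adjusted p = 0.0464), and the gene that fell, the cystine importer Slc7a11 (-1.73 ± 0.42, adjusted p = 0.0381), were named after their values were seen. Slc7a11 was scarce, at 3.19, 2.20 and 1.45 CPM in XCON and 0.729, 0.543 and 0.778 CPM in XCKO. Mpst passed in 0 of the 6 fits without 1 library, with an adjusted p of up to 0.119 without XCON 1, and Slc7a11 passed only without XCON 3, with up to 0.12 without XCON 1.

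Of the folate and methionine synthase genes, 3 of 24 rose, 1 (Mtr) fell, and the median was 0.26. Mthfd1, a cytosolic folate enzyme with several activities (0.81, adjusted p = 0.0320), and Slc46a1, the proton-coupled folate transporter (0.68, adjusted p = 0.0342), rose, as did Shmt1, the cytosolic serine hydroxymethyltransferase, named after its values were seen (0.79, adjusted p = 0.0343). Each passed in 1 of the 6 fits that left out 1 library: Mthfd1 without XCON 3, Slc46a1 without XCKO 2 and Shmt1 without XCKO 1. The highest adjusted p were 0.0878 for Mthfd1 without XCKO 3, and 0.0949 for Slc46a1 and 0.0932 for Shmt1 without XCON 1. In nicotinamide and NAD metabolism 1 of 14 rose, Haao of the kynurenine pathway (0.77, adjusted p = 0.0445, lost on leaving out any library, with up to 0.124 without XCKO 3), and 0 fell, with a median of 0.35. Among 15 genes of S-adenosylhomocysteine removal, polyamines and methionine salvage, 0 passed by edgeR in either direction. At an unadjusted p under 0.05, 3 of these 15 were higher and 1 lower, against 14.3% of all tested genes that were higher. DESeq2 called 1 of the 15 higher. The smallest p in this list was that of Adk, the adenosine kinase that clears the other product of Ahcy, with a log2 fold change of 0.64 ± 0.21 (adjusted p = 0.0812). By DESeq2 the number higher and lower was 7 and 1 for folate and 6 and 0 for choline to sarcosine. It was 8 and 0 for the methyltransferases, 5 and 1 for cysteine and 2 and 0 for NAD. Of all genes, DESeq2 called 9.51% higher and 8.32% lower. The list counts also changed with the scaling. By library totals alone, the number higher and lower was 0 and 1 for folate, 2 and 1 for choline to sarcosine, 2 and 0 for the methyltransferases, 1 and 1 for cysteine, 0 and 0 for NAD and 0 and 1 for polyamines and salvage. With library totals, 2.19% of all genes were higher and 13.7% lower. Scaled to hepatocyte markers, it was 0 and 3 for folate, 2 and 1 for choline to sarcosine, 2 and 1 for the methyltransferases, 1 and 2 for cysteine, 0 and 2 for NAD and 0 and 5 for polyamines and salvage, beside the 1.1% higher and 37.2% lower of all genes on that scale. Under the hepatocyte-marker scaling the medians were 0.09 for choline to sarcosine, -0.12 for the methyltransferases, -0.06 for cysteine, -0.28 for folate, -0.20 for NAD and -0.32 for polyamines and salvage, beside -0.61 for all tested genes.

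**Figure D4:**
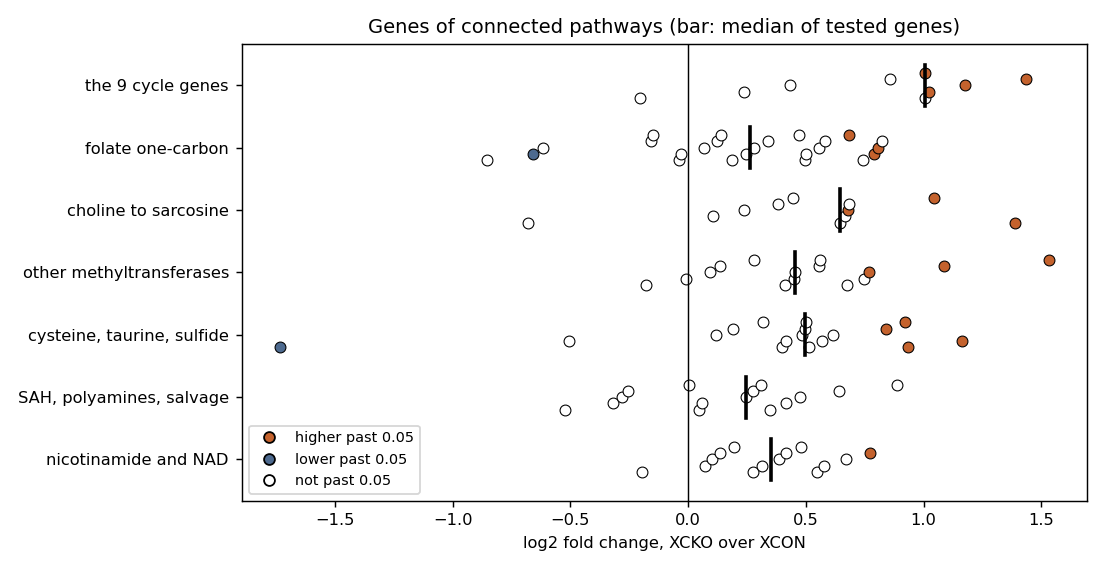
Log2 fold change (XCKO over XCON) of each tested gene in the 9-gene group and in 6 connected lists, 1 point per gene, with a black bar at each median. The medians run from 0.25 for the list of S-adenosylhomocysteine removal, polyamines and salvage to 1.01 for the 9 genes.

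Gene length and zonation markers were set beside these values. Genes in the length decile of Gnmt (the shortest) had a median log2 fold change of 0.21, and those in the decile of Bhmt, the longest of the 9, had -0.12. With a length offset in the edgeR fit, 658 of 14873 genes were higher and 429 lower, against 775 and 603 without it. In that fit Cth had an adjusted p of 0.0573, and Mat1a, Gnmt (log2 fold change 0.93) and Nnmt passed. Of the list genes called above, Mtr (adjusted p = 0.0530), Slc6a12 (0.0677), Slc7a11 (0.0740), Mpst (0.0758) and Haao (0.106) did not pass. The other list genes kept their calls. Of 7 periportal markers 0 passed by edgeR and 2 were higher at an unadjusted p under 0.05, with a median of 0.40. Of 8 pericentral markers 1 fell by edgeR (Glul, log2 fold change -1.05, adjusted p = 0.0363), with a median of -0.49. At an unadjusted p under 0.05, 1 of the 8 was higher and 2 were lower. Of all tested genes, 14.3% were higher at that p, and the share lower was not counted. By edgeR at an adjusted p under 0.05, 5.21% of all tested genes rose and 4.05% fell. Summed, the 8 stood at 2142 to 4005 CPM in XCON and at 3947 to 4445 CPM in XCKO. The Glul call held only without XCKO 3, with an adjusted p of up to 0.0999 without XCKO 2. Their part in the results was not tested.

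By the root mean square difference of centred log2 CPM over the 6 libraries, the genes whose pattern was most like that of Nnmt among 9480 candidates were Asl (0.058), Coa6 (0.066), Saa4 (0.12), Zap70 (0.12) and Dcxr (0.13). Asl encodes argininosuccinate lyase of the urea cycle, and Saa4 a constitutive serum amyloid. Among the other 8 genes of the cycle, Gnmt was nearest to Nnmt (rank 29) and Mat2a farthest (rank 7065).

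**Figure D5:**
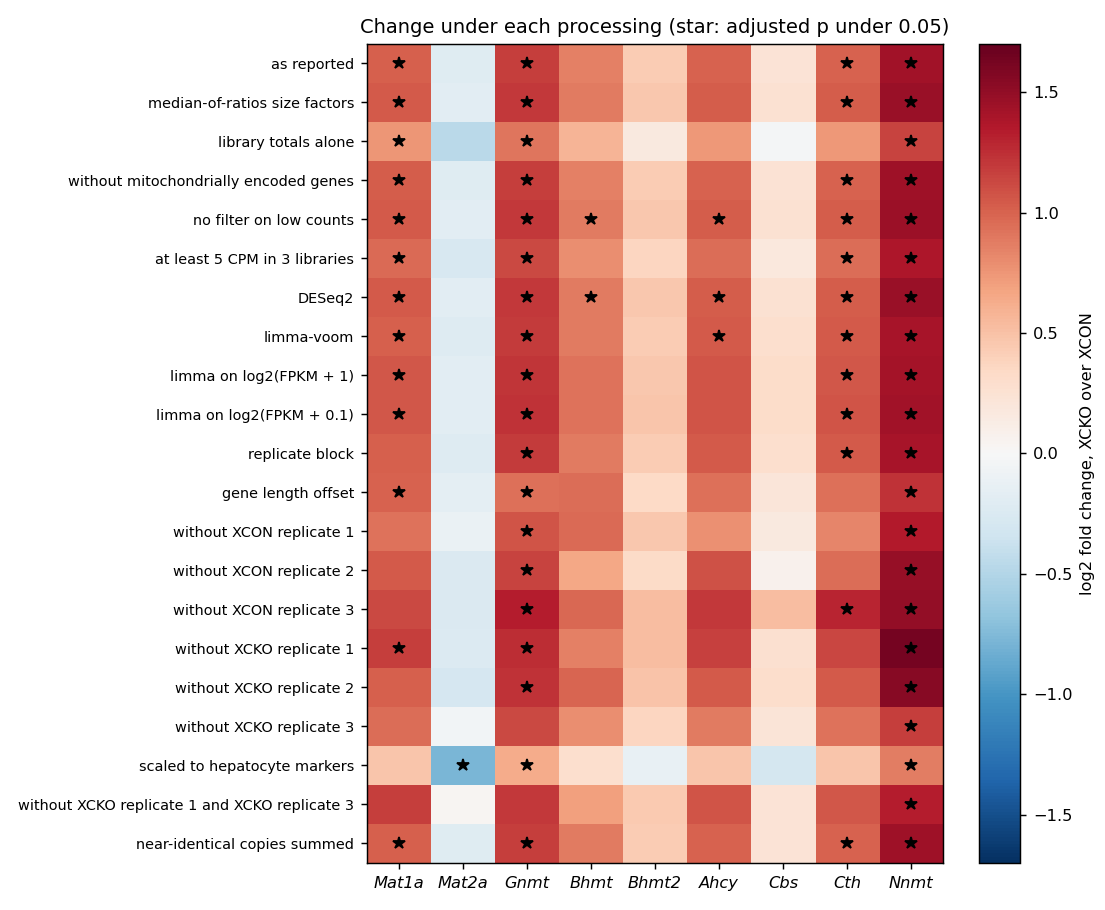
Log2 fold change (XCKO over XCON, colour) of each gene under each processing of the counts, with a star where the adjusted p was under 0.05. Nnmt has a star in every line and Mat2a in the line scaled to hepatocyte markers alone.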

How the data were processed

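RNA of isolated hepatocytes was sequenced in 6 libraries made with a NEBNext Ultra kit from Trizol-extracted RNA, per the labels' protocols. The authors deposited 1 table of raw read counts per Ensembl gene, FPKM, group means (a signal, in size-factor-scaled counts), log2 fold changes and p-values with adjusted p-values. The submitters' processing notes list Bowtie 0.12.2 together with mm8 and mm10; which program counted the reads was not stated. Of the gene identifiers, 99.8% are in GENCODE M21 (mm10), and 98.3% of these have the same start and end, so coordinates are the table's own, on mm10.

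Counts were filtered with filterByExpr, scaled by TMM and tested with edgeR 4.0.16 (quasi-likelihood, R 4.3.3) on all 6 libraries without covariates. Adjusted p-values are Benjamini-Hochberg over 14873 genes, with a threshold of 0.05. CPM are TMM-scaled. The common coefficient of variation was 25.8%. The pipeline was tested on simulated data. Alternatives were DESeq2 1.42.0, limma 3.58.1 (voom, and log2 of the deposited FPKM plus 1 or 0.1), other scalings and filters, a length offset, a replicate block and each library left out. Scaling to hepatocyte markers, leaving out XCKO 1 and XCKO 3, and adding near-identical copies were chosen after seeing the data. The 9 genes and the lists were chosen with earlier results of these data known. Named were Xbp1, the 9 genes, up to 3 genes of smallest p past 0.05 per list (otherwise 1), and the 5 genes most like the cycle gene of smallest p among those with a mean of at least 5 CPM.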

Additional observations from a re-analysis of the deposited data

How the results depend on the processing

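Of the 4 genes that rose, Nnmt passed in every alternative run with more than 1 library per group. The number of the 9 past 0.05 was 1 to 3 with each library left out in turn and 3 with library totals alone. It was 5 by limma-voom, and 6 both with no filter on low counts and by DESeq2. Over all genes, 1378 passed (775 higher, 603 lower), against 309 to 810 with each library left out and 2358 (326 higher, 2032 lower) with library totals alone. It was 1454 by limma-voom, 2160 of 26604 with no filter on low counts, 2653 by DESeq2 and 5690 (164 higher, 5526 lower) scaled to hepatocyte markers. The cause of these differences was not tested. Library totals moved the median of all genes from -0.05 to -0.31. Direction turned for Cbs with library totals alone (-0.034) and with hepatocyte-marker scaling (-0.30), for Bhmt2 with that scaling (-0.13), and for Mat2a without XCKO 1 and XCKO 3 (0.033, against -0.28 to -0.04 with 1 library left out). With a replicate block, 322 genes and 3 of the 9 passed, and Mat1a had an adjusted p of 0.0578. Same-numbered libraries had correlations of deviations of 0.0554, 0.0765 and -0.168, and not every library correlated best with its own number, so the numbers were not taken as pairs. The 3 ratios kept their direction with each library left out, at 0.98 to 1.44, 1.32 to 1.67 and -0.34 to -0.04 on the log2 scale.

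With 3 libraries per group, a log2 fold change of a cycle gene had a standard error of 0.17 to 0.28. The change of Bhmt2 (0.43, with a standard error of 0.17) did not pass. Exact permutation p-values over ratios could not go below 0.1.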
